A study of Homo sapiens with 6 samples.

Results

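The E-cadherin, catenin and vinculin genes studied here are 10 genes of the cadherin-catenin-actin link of the adherens junction: CDH1, CDH3, CTNNB1, JUP, CTNND1, CTNNA1, CTNNAL1, VCL, AJUBA and AFDN. They were chosen by gene name, out of 58735 genes in the deposited count table. The study names cell-substrate adherens junction and cadherin binding among its enriched terms. The 10 genes are not the study's own list for either term. RNA came from LoVo, an established cell line of human colorectal cancer, transfected with a control siRNA (si-NC, 3 libraries) or with an siRNA against the splicing factor SRSF11 (si-SRSF11, 3 libraries). Both groups are the same line, and the labels name no difference between them other than the siRNA. The study made 3 SRSF11 siRNAs, and its text does not name which one the sequenced cells received.

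At an adherens junction, the outer part of a classical cadherin binds a cadherin of the neighbouring cell, and its cytoplasmic tail holds the catenins. Beta-catenin or plakoglobin binds the end of the tail and passes the link to alpha-catenin, which binds actin filaments and, when it is under tension, recruits vinculin. The catenin p120 binds nearer the membrane and slows the uptake of the cadherin into the cell. In gut epithelium E-cadherin is the main cadherin of these junctions, and beta-catenin also serves as the transcriptional partner of Wnt signalling.

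All 10 genes passed the filter on low counts (at least 10 counts in at least 3 libraries), as did 15801 genes of the table. Levels are given as CPM, the counts scaled to a common library size with edgeR's TMM factors. A gene was called when its adjusted p was under 0.05 in edgeR's quasi-likelihood test, with Benjamini-Hochberg adjustment over the 15801 genes. Library totals ran from 14369525 to 15514404 counts in si-NC and from 15688702 to 16685719 counts in si-SRSF11. Genes of the mitochondrial chromosome took 7.00% to 7.25% of the counts in si-NC and 8.29% to 8.51% in si-SRSF11, and their part in the results was not tested. The targeted gene SRSF11 went from 86.5 ± 1.90 CPM (SD, n = 3) to 49.5 ± 0.952 CPM (SD, n = 3), so the labels held in each library and 57.2% of the SRSF11 RNA was left. The epithelial marker genes EPCAM, KRT8, KRT18, KRT19, VIL1 and CDX2 had at least 955 counts in each library, while KRT20 had 6 to 20. Of the 6 fibroblast marker genes, DCN and LUM were at 0 in each library, COL1A2 and COL3A1 had at most 2 counts, and COL1A1 and PDGFRB had over 100 counts in each. The summed level of the fibroblast markers was 19.7 to 23.2 CPM in si-NC and 24.7 to 28.97 CPM in si-SRSF11, and its part in the results was not tested. Of the 2 that passed the count filter, PDGFRB rose from 8.89 ± 1.46 to 14.5 ± 1.12 CPM (SD, n = 3, edgeR, adjusted p = 0.00023), while COL1A1 was at 12.7 ± 0.326 and 11.7 ± 1.24 CPM (SD, n = 3) and was not called. The summed level of the endothelial and blood markers was at most 2.63 CPM in any library, with PTPRC at 0 in each.

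The genes of vinculin and alpha-catenin were lower after SRSF11 knockdown, as were CTNNAL1 and AJUBA. The genes of the cadherins and the armadillo catenins were not called. CTNNA1, CTNNAL1, VCL and AJUBA fell to between 74.7% and 82.5% of their si-NC level, and CDH1, CDH3, CTNNB1, JUP, CTNND1 and AFDN were not called. Of the 10 genes, 4 were called lower and 0 higher (edgeR's quasi-likelihood test). Over all tested genes, 24.6% were called, 11.4% lower and 13.2% higher. These shares cover every level past the count filter, while the 10 genes lay at a mean log2 CPM of 4.99 (CDH3) to 8.73 (JUP). The share called among genes of like level was not computed. With scaling by library size alone, 40.9% of all calls were in the higher direction, against 53.6% with TMM scaling, and 6 of the 10 genes were called lower and 0 higher. At an unadjusted p under 0.05, CDH1 was the only one of the 10 genes with a positive log2 fold change, and DESeq2 also called 0 higher. The median log2 fold change was -0.12 over the 10 genes and 0.0015 over all tested genes. In 5 of the 10 genes the 3 si-SRSF11 libraries did not overlap the 3 si-NC libraries in CPM, 4 lower and 1 higher, which is seen in 38.8% of all tested genes. None of the 10 passed an absolute log2 fold change over 1 together with an adjusted p under 0.05, which 1.09% of all tested genes did. The study describes its RNA samples as independent and in pairs, but neither it nor the labels say whether they came from separate cultures, so p-values measure the spread between these libraries. In RNA from whole cultures, fewer cells that express a gene and less RNA per cell cannot be told apart.

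**Figure D1:**
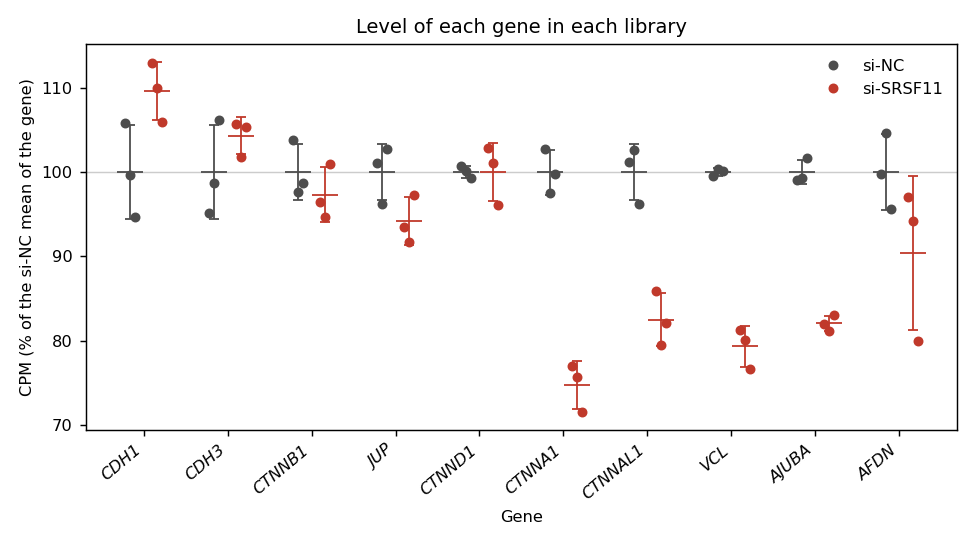
CPM of each gene in each library as a percentage of the gene's mean in si-NC, with 3 libraries per condition as points and the mean ± SD as bars (the axis does not start at 0). The si-SRSF11 points of CTNNA1, CTNNAL1, VCL and AJUBA lie below all si-NC points of the same gene, and those of CDH3, CTNNB1, JUP, CTNND1 and AFDN overlap them.

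The cadherins come first in the chain. CDH1 encodes E-cadherin and lies on the plus strand of chromosome 16 of GRCh38 from 68737225 to 68835548. Its counts were 3479, 3433 and 3343 in si-NC and 4004, 4055 and 3918 in si-SRSF11, here and throughout in the order of the replicates. In CPM these were 240, 226 and 215 against 256, 249 and 240. The groups stood apart by a narrow gap, with the highest si-NC library at 239.9 CPM and the lowest si-SRSF11 library at 240.3 CPM. On average CDH1 stood at 227 ± 12.7 CPM (SD, n = 3) in the control and 249 ± 7.91 CPM (SD, n = 3) after knockdown. The log2 fold change of 0.13 (95% interval 0.03 to 0.24) was not called (edgeR, unadjusted p = 0.015, adjusted p = 0.057). Without si-NC replicate 1 (adjusted p = 0.041) or without si-SRSF11 replicate 3 (adjusted p = 0.029), CDH1 was called higher, and with the replicate number as a block it was too (adjusted p = 0.026). Over the alternatives, the log2 fold change of CDH1 lay between 0.09 and 0.17. CDH1 shares 5.62% of its exon bases with an antisense gene, AC099314.1, which had at most 2 counts in a library.

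CDH3, the gene of P-cadherin, lies beside CDH1 on the same strand of chromosome 16, from 68636189 to 68722616. Its counts were 429, 466 and 514 in si-NC and 514, 514 and 534 in si-SRSF11, the fewest reads among the 10 genes. The levels overlapped, with 31.1 ± 1.75 CPM (SD, n = 3) in the control and 32.4 ± 0.685 CPM (SD, n = 3) after knockdown, a log2 fold change of 0.06 (95% interval -0.09 to 0.21, adjusted p = 0.59 from edgeR). CDH3 shares 11.1% of its exon bases with an antisense gene, AC126773.2, which had 8 to 20 counts per library.

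The armadillo catenins bind the cadherin tail. CTNNB1, the gene of beta-catenin on chromosome 3 (41194741 to 41260096, plus strand), was read 4808, 4741 and 4911 times in si-NC and 4818, 4916 and 5261 times in si-SRSF11. In CPM it stood at 332, 312 and 315 in si-NC and at 308, 302 and 323 in si-SRSF11, and the groups overlapped. Its log2 fold change was -0.04 with a 95% interval of -0.14 to 0.06 (adjusted p = 0.59 from edgeR). CTNNB1 shares no exon base with another annotated gene.

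JUP encodes plakoglobin, a close relative of beta-catenin that also joins desmosomes. It lies on the minus strand of chromosome 17 from 41754604 to 41786931 and had the most reads of the 10 genes, with 6410, 6401 and 7000 counts in si-NC and 6398, 6520 and 6944 counts in si-SRSF11. JUP went from 438 ± 14.6 CPM (SD, n = 3) to 412 ± 12.6 CPM (SD, n = 3). The groups overlapped in 1 library each, since si-SRSF11 replicate 3 (426 CPM) lay above si-NC replicate 2 (421 CPM). Its log2 fold change of -0.09 (95% interval -0.18 to 0.01) was not called (edgeR, adjusted p = 0.18), and with scaling by library size alone it was -0.12 and was called (adjusted p = 0.047).

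CTNND1 encodes p120-catenin, on the plus strand of chromosome 11 from 57753243 to 57819546. Its counts were 5406, 5631 and 5723 in si-NC and 5953, 6084 and 5802 in si-SRSF11. Of the 10 genes it had the smallest difference between the means, with 370 ± 2.70 CPM (SD, n = 3) in si-NC and 370 ± 12.9 CPM (SD, n = 3) in si-SRSF11. The 95% interval of the log2 fold change was -0.09 to 0.09 (edgeR, adjusted p = 1.00). CTNND1 shares 4.64% of its exon bases with the read-through gene TMX2-CTNND1 and with AP001931.1, which had at most 3 and 14 counts in a library. Reads that fell on the shared bases may have been left out or split, since the counting program is not given in the sources used here.

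The alpha-catenin family holds 3 of the 10 genes: CTNNA1, the related CTNNAL1 and the related VCL. All 3 were called lower. CTNNA1 encodes alpha-E-catenin, which joins beta-catenin to actin, and lies on the plus strand of chromosome 5 from 138610967 to 138935034. Its counts were 800, 795 and 834 in si-NC and 646, 660 and 626 in si-SRSF11. In CPM these were 55.2, 52.3 and 53.5 against 41.3, 40.6 and 38.4, with no overlap. This was the largest change among the 10 genes, -0.42 on the log2 scale (standard error 0.061, 95% interval -0.55 to -0.29, adjusted p = 2.7e-05 from edgeR), which left 74.7% of the si-NC level. Of 6401 tested genes whose mean log2 CPM was 5 or more, 2.03% had a lower log2 fold change. In fits without 1 library, the value stayed between -0.45 and -0.39. CTNNA1 shares 5.89% of its exon bases with LRRTM2, a gene on the other strand within it, and with AC034243.1, and these had at most 5 counts each in a library.

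VCL encodes vinculin, which binds both alpha-catenin and actin and also sits in focal adhesions. It lies on the plus strand of chromosome 10 from 73995193 to 74121363. Its counts were 4526, 4784 and 4892 in si-NC and 3988, 4083 and 3918 in si-SRSF11. In CPM the si-NC libraries were close together at 312, 315 and 314, and the si-SRSF11 libraries stood below them at 255, 251 and 240. VCL changed by -0.33 on the log2 scale (standard error 0.046, 95% interval -0.43 to -0.24, adjusted p = 1.3e-05 from edgeR), which left 79.3%. VCL shares 11.1% of its exon bases with AP3M1 on the other strand, which had 807 to 890 counts per library and a log2 fold change of -0.02 (adjusted p = 0.80). No source used here says that counting was by strand, so reads on the shared bases of VCL and AP3M1, or of CDH3 and its antisense gene, cannot be told apart.

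CTNNAL1 encodes alpha-catulin, a protein related to alpha-catenin and vinculin, and lies on the minus strand of chromosome 9 from 108942569 to 109013529. It had 1451, 1541 and 1481 counts in si-NC and 1327, 1278 and 1324 counts in si-SRSF11. The levels were 100, 101 and 95.1 CPM against 84.8, 78.6 and 81.2 CPM, again without overlap. CTNNAL1 changed by -0.28 on the log2 scale (standard error 0.052, 95% interval -0.38 to -0.17, adjusted p = 0.00043 from edgeR), which left 82.5%. CTNNAL1 shares no exon base with another annotated gene.

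Of the adaptors, AJUBA was called and AFDN was not. AJUBA encodes a LIM protein that binds alpha-catenin and actin, on the minus strand of chromosome 14 from 22971174 to 22982642. Its counts were 4828, 5069 and 5321 in si-NC and 4308, 4433 and 4548 in si-SRSF11. In CPM the libraries of each condition lay close together, at 333, 334 and 342 in si-NC and at 275, 273 and 279 in si-SRSF11. AJUBA changed by -0.29 on the log2 scale (standard error 0.045, 95% interval -0.38 to -0.19, adjusted p = 6.1e-05 from edgeR), which left 82.1%. AJUBA shares 0.836% of its exon bases with AL132780.3, which had 0 counts in each library. Without each library in turn, AJUBA, VCL, CTNNAL1 and CTNNA1 kept an adjusted p of at most 0.0060.

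AFDN encodes afadin, which binds the nectins and actin, on the plus strand of chromosome 6 from 167826922 to 167972023. Its counts were 1376, 1513 and 1417 in si-NC and 1444, 1457 and 1240 in si-SRSF11. In CPM it stood at 94.9, 99.5 and 91.0 in si-NC and at 92.3, 89.6 and 76.0 in si-SRSF11, so that si-SRSF11 replicate 3 was low and replicate 1 lay within the si-NC range. The log2 fold change of -0.15 (95% interval -0.28 to -0.02) was not called (edgeR, adjusted p = 0.097). Without si-SRSF11 replicate 3 the value was -0.07 (adjusted p = 0.38), without si-SRSF11 replicate 1 it was -0.20 and was called (adjusted p = 0.021). AFDN was also called with scaling by library size alone (adjusted p = 0.049) and with the replicate number as a block (adjusted p = 0.045).

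**Figure D2:**
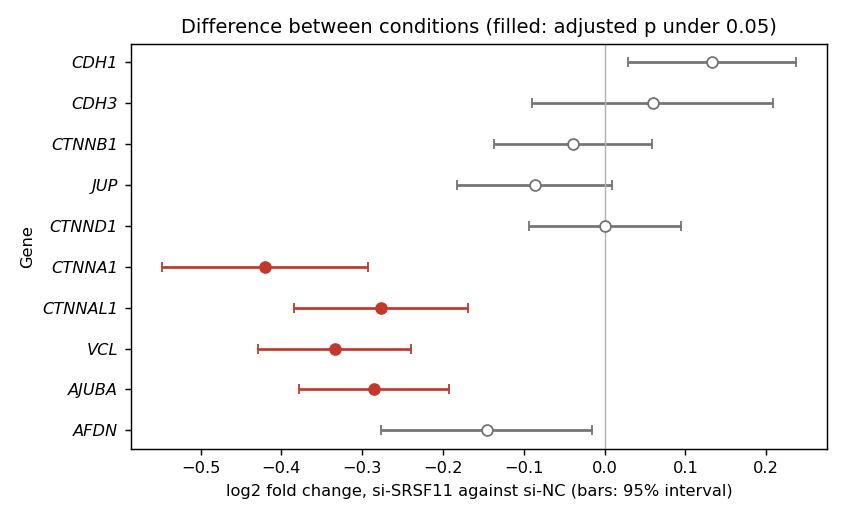
Log2 fold change of each gene in si-SRSF11 against si-NC from edgeR (n = 3 libraries per condition), with the 95% interval as a bar and filled points for an adjusted p under 0.05. CTNNA1 (-0.42), VCL (-0.33), AJUBA (-0.29) and CTNNAL1 (-0.28) are filled, and CDH1 (0.13) is the highest value.

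The DNA before the start sites of the 4 genes that were called lower is shown, and that shared direction is how the 4 were chosen. RefSeq start sites (GRCh38.p14) were found for 7 of the 10 genes, and CDH1, CDH3 and CTNND1 had no entry. For each gene the RefSeq start site farthest upstream was taken, which for each of the 4 lies inside the gene as the count table bounds it, and of the 250 bases before it the longest run outside annotated exons is shown, 5′ to 3′ on the strand of the gene. Capitals mark the GC box, GGGCGG or its complement CCGCCC, a binding sequence of the SP family of transcription factors.

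CTNNA1, chr5:138753310-138753417, plus strand: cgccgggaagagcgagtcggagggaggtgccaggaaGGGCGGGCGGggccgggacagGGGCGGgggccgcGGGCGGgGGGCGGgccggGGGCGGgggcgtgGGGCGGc
CTNNAL1, chr9:109013530-109013749, minus strand: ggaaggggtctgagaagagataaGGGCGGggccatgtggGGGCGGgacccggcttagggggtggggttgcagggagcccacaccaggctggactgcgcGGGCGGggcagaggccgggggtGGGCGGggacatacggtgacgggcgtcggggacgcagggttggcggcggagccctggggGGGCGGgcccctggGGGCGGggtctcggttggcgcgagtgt
VCL, chr10:73997866-73998113, plus strand: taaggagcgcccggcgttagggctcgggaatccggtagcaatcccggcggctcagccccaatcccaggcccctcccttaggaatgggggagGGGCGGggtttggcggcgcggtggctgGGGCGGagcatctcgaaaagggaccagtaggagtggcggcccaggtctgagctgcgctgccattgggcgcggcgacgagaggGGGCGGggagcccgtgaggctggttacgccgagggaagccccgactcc
AJUBA, chr14:22982643-22982697, minus strand: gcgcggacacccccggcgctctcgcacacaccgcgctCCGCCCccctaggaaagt

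In the full 250 bases, the GC box occurred 9 times before CTNNA1, 7 times before CTNNAL1, 3 times before VCL and 2 times before AJUBA, counting both strands and overlapping copies. Before the genes that were not called it occurred 3 times for CTNNB1, 2 times for JUP and once for AFDN. At least 1 copy was present before 42.6% of 35116 RefSeq start sites, and at least 3 copies before 13.9%. The windows of the 4 genes were 68.4% to 80.0% G and C, those of CTNNB1, JUP and AFDN, which were not called, were 74.4%, 63.6% and 84.8%, and the median over all start sites was 58.0%. Other letters searched on both strands were CATTCC (complement GGAATG), present once before VCL and before 11.9% of all start sites, and CACCTG (complement CAGGTG), present 4 times before AFDN and before 17.5% of all start sites. These are matches of letters, and the counts of reads hold no measurement of binding.

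Per kilobase, JUP had the highest level of the 10 genes and CDH3 the lowest in si-NC, whichever length was used. The order between them depends on the length, because the deposited gene length covers all annotated exons, and the lengths of the principal coding transcripts are shorter. Over the deposited lengths, CTNNB1 stood at 26.8 ± 0.880 CPM per kilobase (SD, n = 3) in si-NC and ranked 7, and over its principal transcript of 3127 bases it stood at 102 ± 3.36 CPM per kilobase (SD, n = 3) and ranked 2. In si-NC over the principal transcripts, the order was JUP, CTNNB1, AJUBA, CTNND1, VCL, CDH1, CTNNAL1, CTNNA1, AFDN and CDH3, and no neighbours in this order overlapped. In si-SRSF11, CDH1 (51.0 ± 1.62 CPM per kilobase) stood above VCL (45.3 ± 1.39 CPM per kilobase), where in si-NC VCL (57.1 ± 0.252 CPM per kilobase) stood above CDH1 (46.5 ± 2.60 CPM per kilobase, SD, n = 3 for each). AFDN and CTNNA1 likewise changed places in si-SRSF11, and there they overlapped. Both changes of place were found over the principal transcripts only. Over the deposited lengths, CDH1 stood above VCL and AFDN above CTNNA1 in both conditions.

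**Figure D3:**
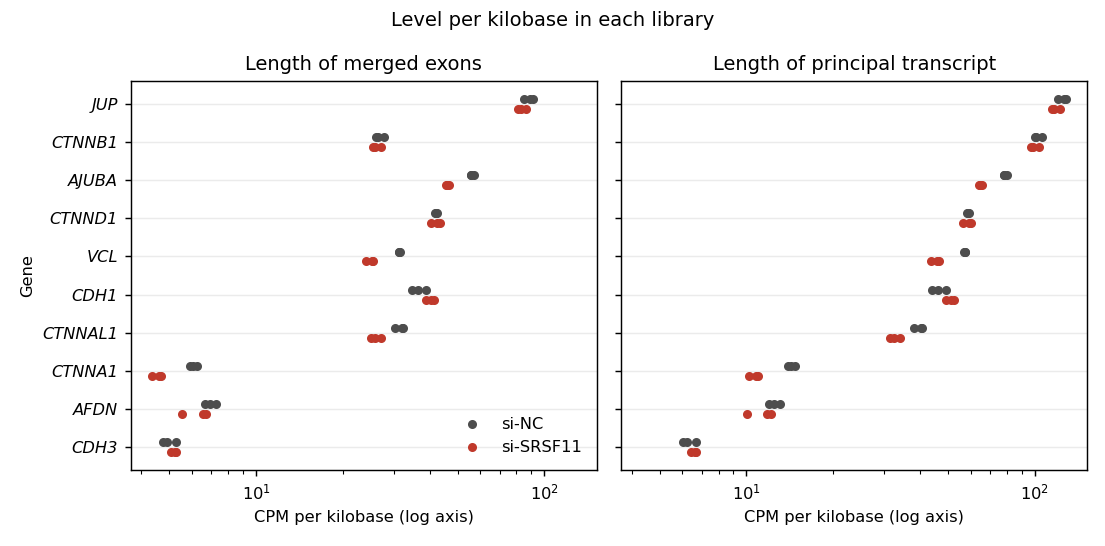
Level per kilobase (CPM per kilobase, log axis) of each gene in each of 3 si-NC and 3 si-SRSF11 libraries, over the deposited length of all merged exons (left) and over the principal coding transcript (right). JUP is the highest on both scales, CTNNB1 ranks 7 on the left and 2 on the right in si-NC, and CTNNA1, AFDN and CDH3 are the 3 lowest on both.

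In si-NC, CTNNA1 had a lower level per kilobase than CTNNAL1, VCL, CTNNB1 and JUP over either length. CDH3 was below it over both, and AFDN over the principal transcripts only. Over the principal transcripts, CTNNA1 in si-NC stood at 14.3 ± 0.381 CPM per kilobase (SD, n = 3), below CTNNAL1 at 39.7 ± 1.34 CPM per kilobase (SD, n = 3). Over the deposited lengths, the log2 ratio of CTNNA1 to CTNNB1 reads per kilobase was -2.15, -2.14 and -2.12 in si-NC replicates 1, 2 and 3 and -2.47, -2.46 and -2.64 in si-SRSF11 replicates 1, 2 and 3. The ratio went from 22.7% to 17.4%, and the groups did not overlap (exact two-sided permutation test, p = 0.10, adjusted p = 0.13 over 4 ratios). With 3 libraries against 3, p = 0.10 is the smallest value this exact permutation test can give, so none of the 4 ratios could pass. The level of each ratio depends on the length used, and all 4 were taken over the deposited lengths. Over the principal transcripts, JUP stood at 125 ± 4.18 and CTNNB1 at 102 ± 3.36 CPM per kilobase in si-NC (SD, n = 3 for each). Over the deposited lengths, the log2 ratio of JUP to CTNNB1 was 1.72 ± 0.051 in si-NC and 1.68 ± 0.0046 in si-SRSF11 (SD, n = 3, exact permutation p = 0.10). The log2 ratio of VCL to CTNNA1 was 2.37 ± 0.045 in si-NC and 2.46 ± 0.011 in si-SRSF11 (SD, n = 3, exact permutation p = 0.10). For CDH3 to CDH1 the groups overlapped, at -2.88 ± 0.16 in si-NC and -2.95 ± 0.056 in si-SRSF11 (SD, n = 3, exact permutation p = 0.70).

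Other genes of the junction moved in both directions. Of 102 genes in 10 lists, 88 were tested and 33 were called, 16 higher and 17 lower (edgeR, adjusted p under 0.05). Over all tested genes, at every level past the count filter, 24.6% were called. The median log2 fold change of the 88 genes was -0.01. Without CDH2, which reached the count filter only through its si-SRSF11 libraries, 87 were tested, with 15 higher and 17 lower. With CDH2 counted, leaving out si-NC replicate 2 brought the higher calls from 16 to 10, and scaling by library size alone gave 12 higher and 19 lower.

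In the list of actin linkers, 3 of 18 tested genes were higher and 5 were lower, with a median log2 fold change of -0.01. FLNA, the gene of a protein that crosslinks actin filaments, fell by 0.35 on the log2 scale (edgeR, adjusted p = 1.5e-05). CFL1, the gene of the actin-severing cofilin, rose by 0.31 (adjusted p = 0.00014). FLNA went from 2691 ± 31.9 CPM (SD, n = 3) to 2115 ± 179 CPM (SD, n = 3), so it varied more among the si-SRSF11 libraries. The alpha-actinins ACTN1 (0.06) and ACTN4 (0.00) and talin TLN1 (-0.10), other partners of vinculin, were not called. VASP, also a partner of vinculin, fell by 0.24 on the log2 scale (edgeR, adjusted p = 0.00095). VASP is named outside the rule for named genes, and its call was not checked under the alternatives.

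Among the relatives of AJUBA, the zyxin and Ajuba LIM proteins, 1 of 6 tested genes was higher and 2 were lower, with a median log2 fold change of -0.14. ZYX, the gene of zyxin at actin-rich adhesions, fell by 0.22 on the log2 scale (edgeR, adjusted p = 0.0014). LPP, a close relative of zyxin, rose by 0.31 (adjusted p = 0.0050). LIMD1 (-0.03) and WTIP (-0.17), the nearest relatives of AJUBA, were not called.

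Among other cadherins, 8 genes were tested. CDH2, the gene of N-cadherin, had 2, 5 and 7 counts in si-NC and 21, 18 and 19 counts in si-SRSF11, which edgeR fitted as 1.94 on the log2 scale (standard error 0.45). CDH2 passed the filter on low counts only through its si-SRSF11 libraries, so a difference was built into its entry, and its values are given without a test. Of the 7 others, 0 were higher in edgeR, also at an unadjusted p under 0.05, and 2 were lower, with a median log2 fold change of -0.05. The level of CDH2 in si-SRSF11 was 1.21 ± 0.123 CPM (SD, n = 3), against 249 CPM for CDH1. It was the 1 gene of the lists past an absolute log2 fold change of 1. CDH24 fell by 0.30 and CDHR5, a cadherin of the intestinal brush border, by 0.25 on the log2 scale (adjusted p = 0.00032 and 0.0018). CDH17, the liver-intestine cadherin, was not called, with 295 ± 2.24 CPM (SD, n = 3) in si-NC (log2 fold change 0.04).

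In the desmosome list, 1 of 4 tested genes was higher and 0 were lower, with a median log2 fold change of 0.14. PERP, a desmosome membrane protein, rose by 0.31 on the log2 scale (edgeR, adjusted p = 2.6e-05). No gene of this list had a negative value at any p, since DSC2, DSG2 and DSP stood at 0.07, 0.12 and 0.16 and were not called. The list of other armadillo proteins and alpha-catenins gave 1 higher and 1 lower of 4 tested genes, with a median of 0.03. PKP2, a plakophilin of desmosomes, rose by 0.25 (adjusted p = 0.00070). The neural and testis or heart alpha-catenins CTNNA2 and CTNNA3 were at 0 counts in each library, and CTNND2 had at most 3.

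Of the nectins and afadin partners, 1 of 11 tested genes was higher and 1 was lower, with a median log2 fold change of -0.02. NECTIN2, a ligand-binding adhesion receptor that afadin anchors, rose by 0.19 on the log2 scale (edgeR, adjusted p = 0.0035). The list of E-cadherin cleavage and traffic gave 4 higher and 2 lower of 12, with a median of -0.03. NUMB, an endocytic adaptor, fell by 0.26 (adjusted p = 0.0012), and ADAM10, the protease that cuts the outer part of E-cadherin, rose by 0.17 (adjusted p = 0.036). ADAM10 is named outside the rule for named genes, and its call was not checked under the alternatives.

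The lists around beta-catenin held calls in both directions. Of 11 genes of beta-catenin turnover, 1 was higher and 2 were lower, with a median log2 fold change of 0.05. AXIN2, a scaffold of the destruction complex and a target of Wnt signalling, went from 119 ± 3.33 CPM (SD, n = 3) to 166 ± 2.27 CPM (SD, n = 3), a log2 fold change of 0.48 (edgeR, adjusted p = 1.5e-07). Of 7 tested nuclear partners, 2 were higher and 1 was lower, with a median of 0.12. TCF7L2, the main DNA-binding partner of beta-catenin in the gut, rose by 0.21, and the co-activator BCL9L fell by 0.25 (adjusted p = 0.0023 for each).

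Of the 25 genes of these lists chosen by the rule for named genes, 17 kept their call in each alternative that gave a value, and 8 lost it in at least 1. Without CDH2, 16 of 24 kept it. ARVCF, PVR and FBXW11 were not called by DESeq2, and APH1A not with scaling by library size alone. ARVCF, PVR, TRIP6, APH1A and FBXW11 lost it without si-NC replicate 1. PVR, APH1A, FBXW11 and LEF1 lost it without si-NC replicate 2, and ARVCF, PVR, TRIP6 and HGS without si-NC replicate 3. ARVCF lost it without si-SRSF11 replicate 1, ARVCF, PVR, CSNK1A1 and FBXW11 without si-SRSF11 replicate 2, and PVR and LEF1 without si-SRSF11 replicate 3. Their log2 fold changes with all libraries ran from -0.22 for ARVCF to 0.38 for LEF1.

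**Figure D4:**
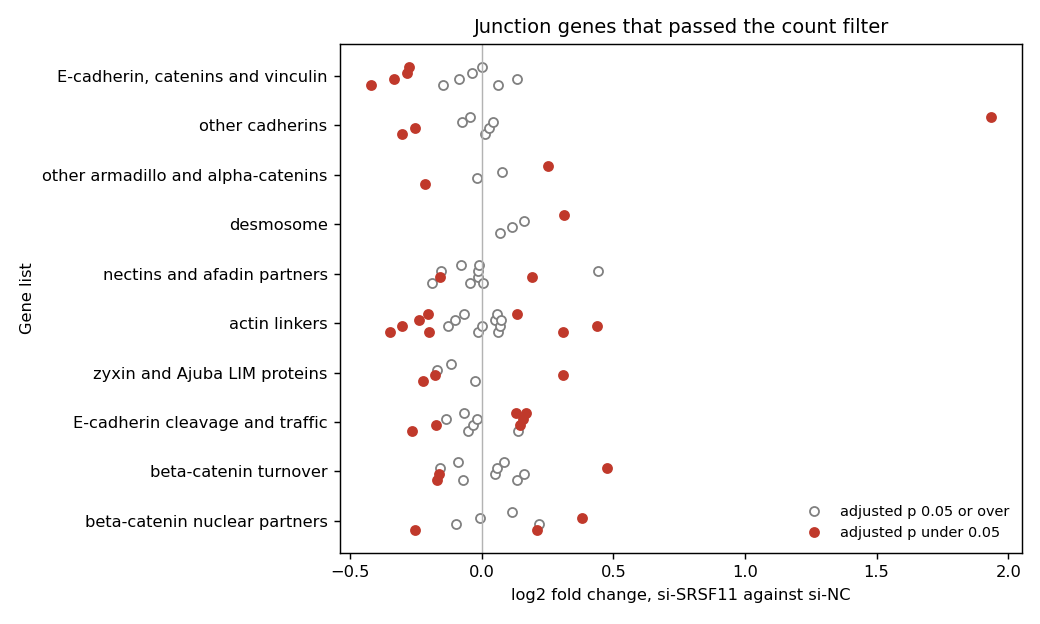
Log2 fold change in si-SRSF11 against si-NC of each junction gene that passed the count filter, in 9 of the 10 lists, with filled points for an adjusted p under 0.05 in edgeR. The 4 filled points of the top line are all below 0. CDH2 stands alone at 1.94, and since it reached the filter only through si-SRSF11, its filled point is not read as a call. The 9 lists below hold 15 filled points above 0, that of CDH2 included, and 16 below.

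The genes most like CDH1 and CTNNA1 over the 6 libraries were found among 6301 other protein-coding genes whose mean log2 CPM was 5 or more, by the root mean square difference of log2 CPM centred on the si-NC mean. For CDH1 these were KDSR (0.0175), FAM171A1 (0.0180) and PPM1F (0.0185). For CTNNA1 they were KLHL5 (0.020), CMTM4 (0.020) and UNC5B (0.024). None of the 6 is in the junction lists, and likeness over 6 libraries of 2 conditions is a description.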

How the data were processed

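The authors sequenced polyadenylated RNA of 6 LoVo libraries from both fragment ends. Their deposited table holds raw read counts, not normalized, and the labels name the build hg38. The aligner and the counting program are not given in the sources used here. Gene identifiers and gene lengths matched GENCODE 29 for all 58735 genes. Library totals ran from 14369525 to 16685719 counts, which sets the counting error of genes with few reads.

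Here, 15801 genes reached 10 counts in 3 or more libraries. They were scaled by TMM and fitted on condition by the quasi-likelihood test of edgeR (version 4.0.16, R version 4.3.3), with Benjamini-Hochberg adjustment. The standard error was taken from the F statistic. Ratios of 2 genes were compared by exact two-sided permutation tests. Alternatives were DESeq2 (version 1.42.0), other scalings and filters, protein-coding genes only, a replicate block, and fits without 1 library. The principal coding transcript, exon overlap and windows of 100 nt shared between transcripts came from GENCODE 29, and in 9 of the 10 genes no window was shared (CTNND1, 4.97%).

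Samples were grouped by the deposited labels. Members, gene lists and tests were chosen with earlier results of these data known, and the start-site sequences and the motifs searched were chosen after the values were seen. Genes named are the 10 members, SRSF11, up to 3 called genes of each list by adjusted p, the 3 genes nearest in pattern to CDH1 and CTNNA1, and genes sharing exon bases with a member. Other names are given as context for a list, without a call, unless marked. CDH5 is in a junction list and in the endothelial list. The separate values of 1 junction list and 1 further gene are not reported here, though the totals over the 10 lists include them.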

Additional observations from a re-analysis of the deposited data

How the results depend on the processing

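Members called lower numbered 4 to 6 under each alternative, and CTNNA1, VCL, CTNNAL1 and AJUBA kept their direction and their call in all 13. Members called higher went from 0 to 1 (CDH1) with the replicate block, and to between 0 and 1 with a library left out. Without a library in turn, the count of junction genes called higher ran from 10 to 16, with CDH2 included where it passed the filter. With a library left out in the same way, the log2 ratio of CDH3 to CDH1 changed by -0.15 to 0.011. CTNND1, near 0, turned sign to -0.0056 with DESeq2, -0.0064 without the filter, -0.011 with protein-coding genes only, -0.00042 with the replicate block, -0.034 with scaling by library size and -0.0080 with upper quartile scaling, and ran from -0.025 to 0.024 with a library left out, where -0.0060 was found without si-NC replicate 3, -0.025 without si-SRSF11 replicate 1 and -0.0070 without si-SRSF11 replicate 2. The cause was not tested.

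The study speaks of pairs of RNA samples, but no source used here says what a pair shares or that the replicate numbers mark it. Deviations of same-numbered libraries from the group means correlated at 0.015, 0.036 and 0.040 for replicates 1, 2 and 3, each the highest for its library. The replicate block gave 4036 calls over all genes in place of 3886, and SRSF11 kept its log2 fold change of -0.80 to within the range -0.84 to -0.79. CDH2 has a value in 9 of 13 alternatives, since the filter leaves it out where a si-SRSF11 library is left out, and DESeq2 gave it no adjusted p. At 429 to 7000 counts a library, depth limits CDH3 most among the 10 genes.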
